A study of Homo sapiens with 9 samples.

Results

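The genes of glucose transport, glycolysis, lactate handling and pyruvate entry into mitochondria were followed in AC16 cells. AC16 is a human line derived by fusion of ventricular myocytes with a fibroblast partner. The set was a list of 41 gene symbols, taken by name from a table of 60671 genes, in which each symbol matched 1 row. The symbols themselves were listed with earlier results of these data known. The 9 libraries of polyadenylated RNA fall into 3 groups of 3 by their treatment label: cells in low glucose, cells in high glucose, and cells in high glucose with chrysin, a plant flavone. All 9 come from the same line, the last 2 groups share high glucose, and the labels give no glucose concentration, chrysin dose, duration, vehicle or passage. Nothing in the labels says that the libraries of a group came from separate cultures, so a p-value here reflects the spread among libraries alone, possibly a technical one.

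As background, glucose enters cells through carriers of the SLC2A family, hexokinases trap it as a phosphate ester, and the enzymes of glycolysis split and oxidise it to pyruvate. Pyruvate is then either reduced to lactate, which leaves through monocarboxylate transporters, or carried into mitochondria, where the pyruvate dehydrogenase complex turns it into acetyl-CoA under the brake of the PDK kinases. Many of these genes are textbook targets of hypoxia-inducible factors, and adult heart muscle is known for drawing most of its energy from fatty acids, with glucose as an alternative fuel.

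Recovered read totals ran from 18171842 to 23024300 per library. TXNIP, a gene that responds to glucose, was listed at 5.90 ± 0.17 FPKM in the low glucose group, 79.2 ± 0.91 in the high glucose group and 16.3 ± 0.86 with chrysin (mean ± SD, n = 3 in each), and its groups did not overlap. High glucose library 1 stood apart from its group: its counts differed from the other high glucose libraries by a chi-square of 28.1 and 31.5 per gene, against 4.82 to 7.44 for the other pairs of replicates. Of 9 cardiomyocyte markers, 8 were below 1 FPKM in every library, including MYH6, MYH7 and TNNT2, which were at or near 0, and the remaining marker, NPPB, ran from 9.45 to 19.6. The summed level of 7 fibroblast markers was 4878 to 5169 FPKM in the low glucose group, 6425 to 6780.4 in the high glucose group and 3813 to 3953 with chrysin, COL1A1 making up most of it. The means of COL1A1, COL1A2, DCN and LUM followed the order of this sum. Mean DCN dropped from 12.97 FPKM in high glucose to 3.52 with chrysin, and mean LUM from 49.2 to 17.9. Their low glucose means, 12.8 and 47.2, were close to those of high glucose. COL3A1 and PDGFRB had lower means in high than in low glucose, and THY1 had its highest mean with chrysin. The part of these markers in the differences below was not tested. Endothelial and immune marker sums stayed below 5 FPKM in every library. The sum of 4 epithelial markers was 300.2 to 314 FPKM in the low glucose group, 331 to 362 in the high glucose group and 233 to 243 with chrysin, almost all of it the keratins KRT8 and KRT18.

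FPKM, the unit of the deposited table, counts fragments per kilobase of transcript in a library scaled to its size. Differences are on the scale of log2(FPKM + 0.5), which understates changes of low genes, and a gene was called changed at a Benjamini-Hochberg adjusted p under 0.05 in limma over the 16996 genes tested. In these bulk libraries, fewer cells that express a gene and less of its RNA per cell cannot be told apart. Of the 41 genes, 40 passed the filter of a mean of 0.5 FPKM in at least 1 group. The exception was PDK4, a kinase that restrains pyruvate dehydrogenase in fasted heart and muscle. It was listed at 0 in 7 of 9 libraries, with the smallest recoverable count, 1 read, in high glucose library 3 and in chrysin library 2.

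Promoters of genes that differed most with chrysin are shown, with the short core that HIF binds, ACGTG or GCGTG, marked. RefSeq windows on GRCh38.p14, the 250 bases before each annotated start, were found for 38 of the 41 genes (71 windows, none for SLC2A3, PFKFB2 and SLC16A1). Both strands were searched, so a core on the other strand reads CACGT or CACGC, and CACGTG holds a core on both. Printed below, 5′ to 3′ on the strand of the gene, are the stretches outside annotated exons for 5 of the 8 genes of at least 5 FPKM in high glucose with the largest falls with chrysin, followed by SLC2A10, which rose with chrysin. Each is the longest such stretch in its window, and capitals mark a HIF core. The ALDOC and SLC2A1 windows lie within annotated exons, as does the other HK2 window, and are not printed.

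PDK1, chr2:172555123-172555372, plus strand: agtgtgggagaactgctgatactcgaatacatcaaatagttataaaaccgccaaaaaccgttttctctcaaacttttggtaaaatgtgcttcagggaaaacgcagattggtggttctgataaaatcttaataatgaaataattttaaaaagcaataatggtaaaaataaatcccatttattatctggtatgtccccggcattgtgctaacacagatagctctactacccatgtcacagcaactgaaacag
PDK1, chr2:172555840-172555968, plus strand: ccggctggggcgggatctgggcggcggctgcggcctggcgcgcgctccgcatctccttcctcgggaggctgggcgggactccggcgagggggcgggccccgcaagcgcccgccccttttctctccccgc
PFKFB4, chr3:48556924-48556982, minus strand: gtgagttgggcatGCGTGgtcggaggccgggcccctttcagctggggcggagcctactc
LDHA, chr11:18394313-18394387, plus strand: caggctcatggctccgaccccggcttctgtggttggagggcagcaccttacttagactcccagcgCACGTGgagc
LDHA, chr11:18396101-18396265, plus strand: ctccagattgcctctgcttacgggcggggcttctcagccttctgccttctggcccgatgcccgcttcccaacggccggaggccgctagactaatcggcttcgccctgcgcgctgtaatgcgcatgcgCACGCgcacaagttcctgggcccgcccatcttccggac
HK2, chr2:74834920-74835169, plus strand: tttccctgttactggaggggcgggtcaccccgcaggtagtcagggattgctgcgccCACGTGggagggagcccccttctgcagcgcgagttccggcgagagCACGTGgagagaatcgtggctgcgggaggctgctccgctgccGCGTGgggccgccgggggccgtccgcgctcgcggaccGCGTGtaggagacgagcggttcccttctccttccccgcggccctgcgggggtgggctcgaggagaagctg
MPC1, chr6:166383014-166383188, minus strand: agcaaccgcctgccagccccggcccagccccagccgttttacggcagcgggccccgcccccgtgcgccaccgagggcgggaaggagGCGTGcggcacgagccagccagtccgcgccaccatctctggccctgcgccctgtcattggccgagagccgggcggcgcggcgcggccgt
SLC2A10, chr20:46709399-46709486, plus strand: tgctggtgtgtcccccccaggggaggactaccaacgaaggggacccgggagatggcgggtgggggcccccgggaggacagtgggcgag

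The HK2 stretch holds 4 capital stretches, each LDHA stretch, PFKFB4 and MPC1 hold 1, and the PDK1 and SLC2A10 stretches hold none. Over the whole 250 bases, the second PDK1 window holds 2 capital stretches, the first LDHA window 3, ALDOC 4, MPC1 2, SLC2A10 1 and SLC2A1 none. At least 1 core was found in 38 of the 71 member windows (53.5%), against 43.2% of all 35116 RefSeq windows. By gene, counting a core in any of its windows, it was 30 of 38 (78.9%), against 47.4% of 27305 symbols. Members had more windows per gene (71 for 38 genes, against 35116 for 27305 symbols), which widens the gap by gene. Of the member windows, 9 (12.7%) held CACGTG, which overlaps the core, against 6.34% of all windows, and 46 (64.8%) held the GC box GGGCGG, against 42.6%. Member windows were richer in G and C, with a median of 68.4% against 58.0%. A match is only a run of letters, and no binding was measured here. The part of HIF in the differences between groups was not tested.

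High against low glucose asks what a change in glucose supply does to these genes. Most enzymes from triose phosphate to lactate were higher in high glucose, while the transporter SLC2A3 and the hexokinase HK2 were lower. Of the 40 genes tested, 17 rose, 2 fell and 21 were not called, against 14.6% higher and 8.91% lower, 23.5% in either direction, among all genes tested. The median difference was 0.11, with 30 positive and 10 negative values, beside 0.02 over all genes. PFKFB4 rose most. Over all genes, calls were 2488 higher and 1514 lower, a split that became 1987 and 1869 with median-of-ratios scaling and 2132 and 2087 after correction for GC content and length, while members stood at 15 higher and 2 lower, and 17 and 3. Without high glucose library 1, 15 members rose and 2 fell, and the shares over all genes in that fit are not given here.

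Chrysin in high glucose, set against high glucose alone, asks what the flavone does at the same glucose label. Here 29 of the 40 genes fell, 4 rose and 7 were not called, against 20.9% lower and 24.9% higher, 45.8% in either direction, among all genes tested. The falls took in PDK1, ALDOC, PFKFB4, SLC2A1 and LDHA, and the rises were SLC2A10, TIGAR, PFKM and PDHA1. The median difference was -0.23, with 34 negative and 6 positive values, beside 0.03 over all genes. Without high glucose library 1, 29 fell and 5 rose, ENO3 being the added rise, again without the shares over all genes. This comparison and the one above share the high glucose libraries, so a high or low value there moves both in opposite directions.

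High glucose with chrysin, set against low glucose, compares groups that share no library but differ in both glucose and chrysin. In this comparison 22 genes fell, 7 rose and 11 were not called, against 21.3% lower and 29.7% higher, 51.0% in either direction, among all genes tested. The median difference was -0.13, with 28 negative and 12 positive values, beside 0.05 over all genes. With median-of-ratios scaling the rises came to 4 and the falls to 24, the calls of HK1, PFKM and SLC16A3 being lost. Over all genes the calls moved the same way, from 5048 higher and 3616 lower to 4212 and 4350.

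**Figure D1:**
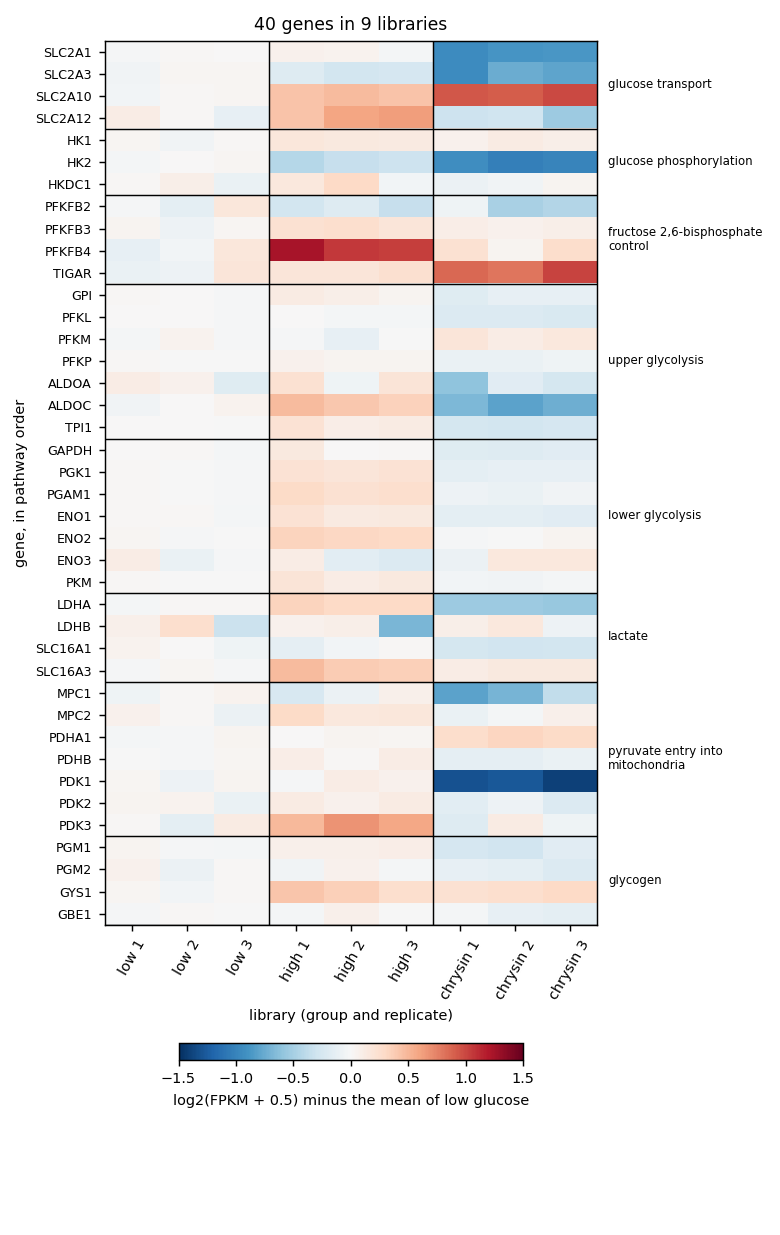
Heat map of the 40 genes tested (rows, in pathway order) in the 9 libraries (columns), coloured by log2(FPKM + 0.5) minus the mean of the 3 low glucose libraries. Blue fills most rows of the chrysin columns, and PFKFB4 is the strongest red of the high glucose columns.

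The summed level of the 41 genes was 11376 ± 112 FPKM in the low glucose group, 12571 ± 397 in the high glucose group and 10147 ± 36.6 with chrysin (SD, n = 3). As a share of all FPKM in the library this was 1.64% ± 0.014, 1.81% ± 0.037 and 1.46% ± 0.0032. The groups did not overlap, and the sum is set mainly by GAPDH, ENO1, PKM, TPI1 and LDHA. FPKM divides by the authors' own length for each gene, which was shorter than the annotated exons for nearly all members, so the order of levels between genes depends on it.

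Among the 4 glucose carriers, chrysin against high glucose went with lower SLC2A1, SLC2A3 and SLC2A12 and higher SLC2A10 (all genes tested: 20.9% lower and 24.9% higher). SLC2A1 (chr1:42925375-42959176, minus strand, GENCODE 29 on hg38) encodes the widespread basal carrier GLUT1. Its level was 126, 128 and 127 FPKM in the low glucose libraries, 133, 132 and 124 in those of high glucose and 65.9, 68.7 and 69.4 with chrysin. The low and high glucose libraries overlapped, and every chrysin library was far below both. The difference was 0.03 (SE 0.034, adjusted p = 0.57) for high against low glucose and -0.93 (SE 0.034, adjusted p = 1.9e-08) for chrysin against high glucose, 1.91-fold lower. Against low glucose, chrysin gave -0.90 (SE 0.034, adjusted p = 1.3e-08).

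SLC2A3 (chr12:7919230-7936275, minus strand) encodes the high-affinity carrier GLUT3 and was measured at 44.4, 46.9 and 47.04 FPKM in the low glucose libraries, 40.3, 37.9 and 38.6 in those of high glucose and 23.6, 27.3 and 26.4 with chrysin. Its groups stepped down without overlap, by -0.24 (SE 0.054, adjusted p = 0.0089) from low to high glucose and -0.59 (SE 0.054, adjusted p = 9.2e-06) from there to chrysin. SLC2A10 (chr20:46709487-46736347, plus strand) encodes GLUT10, a carrier of inner membranes linked to arterial tortuosity. It went the other way, at 7.14, 7.46 and 7.58 FPKM in the low glucose libraries, 10.1, 10.4 and 10.1 in those of high glucose and 14.5, 14.3 and 15.1 with chrysin. No groups overlapped, and it rose by 0.44 (SE 0.054, adjusted p = 0.00027) with glucose and by a further 0.50 (SE 0.054, adjusted p = 3.1e-05) with chrysin. SLC2A12 encodes GLUT12, a carrier found in insulin-sensitive tissue, and rested on 13 to 107 reads per library. It was listed at 0.456, 0.395 and 0.31 FPKM in the low glucose libraries, 0.688, 0.833 and 0.866 in those of high glucose and 0.215, 0.221 and 0.105 with chrysin. High glucose was above the other groups in all 3 libraries, and the fall with chrysin was -0.93 (SE 0.18, adjusted p = 0.0016). SLC2A12 passed the filter of 0.5 FPKM only through its high glucose mean, 0.796, beside 0.387 in low glucose and 0.18 with chrysin. Its peak in high glucose and its fall with chrysin, which is among the falls counted above, are therefore not independent of the filter. The difference of 0.55 (SE 0.18, adjusted p = 0.0502) for high against low glucose was just outside the threshold, and limma voom on recovered reads called it with an adjusted p of 0.00064. Of the SLC2A12 exon bases, 38.9% overlap TBPL1 on the other strand, and the strand setting of the counting is unknown here.

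Of the summed FPKM of the 4 carriers, SLC2A1 held 70.2% ± 0.46 in the low glucose group, 72.2% ± 0.68 in the high glucose group and 62.6% ± 0.53 with chrysin (SD, n = 3). The SLC2A10 share was 4.08% ± 0.069, 5.68% ± 0.17 and 13.5% ± 0.5. The SLC2A3 share was 25.5% ± 0.43, 21.7% ± 0.66 and 23.7% ± 1.01. SLC2A1 was the main carrier transcript in every library, and the SLC2A10 shares did not overlap between groups.

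**Figure D2:**
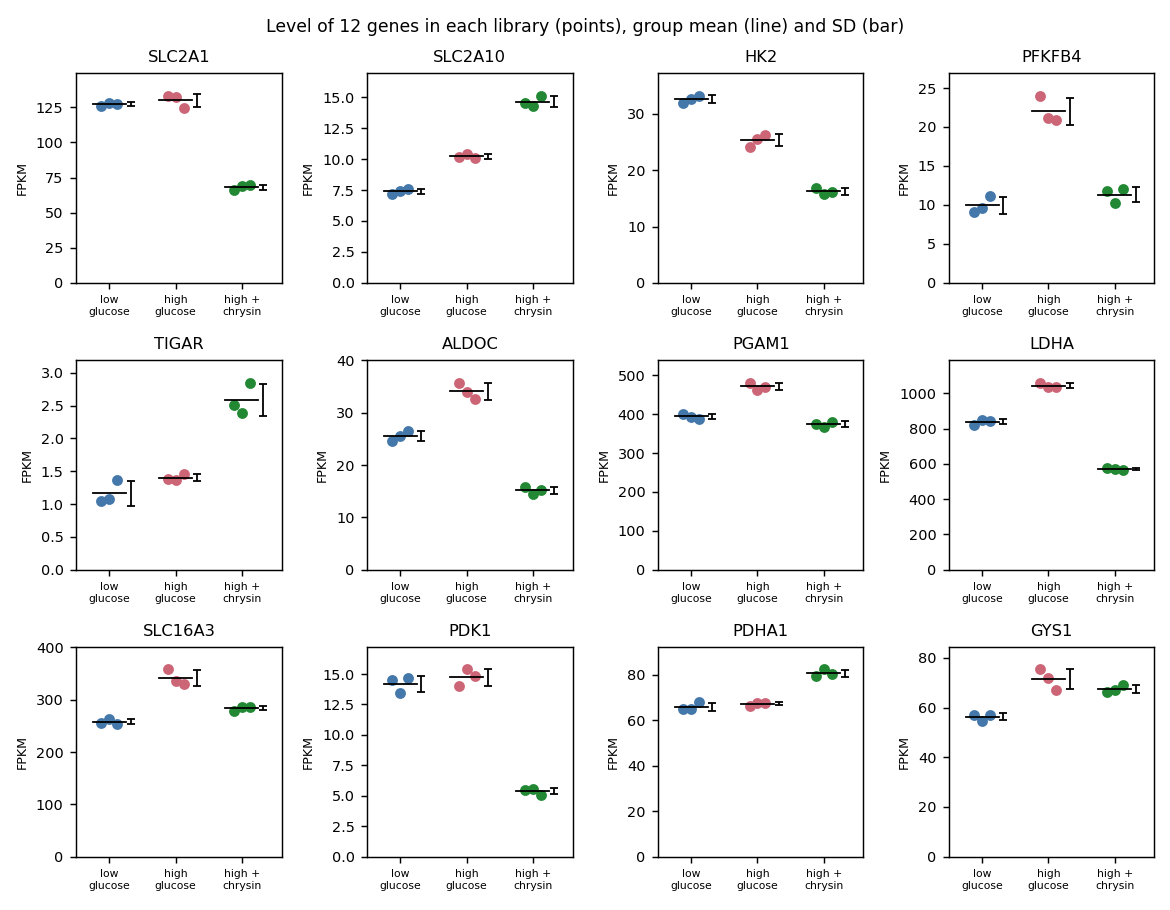
Level in FPKM (vertical axes, from 0) of 12 genes in each library, with points for libraries, a line for the group mean and a bar for the SD. SLC2A1, LDHA, ALDOC and PDK1 have their 3 chrysin points below all others, PFKFB4 and SLC16A3 peak in high glucose, and SLC2A10, TIGAR and PDHA1 are highest with chrysin.

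Of the 3 hexokinases, the inducible one fell at each step. HK2 (chr2:74833981-74893359, plus strand), the insulin- and hypoxia-responsive form of heart and skeletal muscle, was at 31.9, 32.7 and 33.2 FPKM in the low glucose libraries, 24.2, 25.5 and 26.3 in those of high glucose and 16.9, 15.7 and 16.1 with chrysin. No groups overlapped. The difference was -0.36 (SE 0.046, adjusted p = 0.00034) for high against low glucose, -0.62 (SE 0.046, adjusted p = 2.1e-06) for chrysin against high glucose and -0.98 (SE 0.046, adjusted p = 6.6e-08) for chrysin against low glucose, the last 2.01-fold lower. HK1, the constitutive form held on the mitochondrial surface, was the most abundant, at 161 ± 4.81, 178 ± 1.90 and 171 ± 3.62 FPKM in the order low glucose, high glucose and chrysin (SD, n = 3). It rose by 0.15 in high against low glucose (adjusted p = 0.0043) and was not called for chrysin against high glucose (-0.06, adjusted p = 0.11), though it was with median-of-ratios scaling. HKDC1, a hexokinase domain protein, ran from 1.17 to 1.69 FPKM on 35 to 63 reads and was called in no comparison. The HK2 share of hexokinase FPKM was 16.8% ± 0.55, 12.4% ± 0.58 and 8.64% ± 0.44, against 82.5% ± 0.59, 86.9% ± 0.54 and 90.7% ± 0.44 for HK1.

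The PFKFB enzymes make and break the fructose bisphosphate that switches phosphofructokinase on, and TIGAR breaks it down. PFKFB4 (chr3:48517684-48562015, minus strand) was at 9.07, 9.59 and 11.2 FPKM in the low glucose libraries, 24.02, 21.2 and 20.9 in those of high glucose and 11.7, 10.2 and 12.03 with chrysin. High glucose stood above both other groups, which overlapped each other. It rose by 1.11 (SE 0.09, adjusted p = 2.1e-05) in high against low glucose, 2.21-fold, the largest rise among the 40 genes on either scale, and fell by 0.93 (SE 0.09, adjusted p = 1.3e-05) with chrysin. Chrysin against low glucose gave 0.18 (SE 0.09, adjusted p = 0.12), which was not called, and was called without low glucose library 3 (adjusted p = 0.031).

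PFKFB3, the form with the strongest kinase activity, was at 31.97, 29.5 and 31.6 FPKM in the low glucose libraries, 36.4, 36.9 and 35.2 in those of high glucose and 33.2, 32.4 and 32.9 with chrysin. No groups overlapped, and high glucose was highest. It rose by 0.22 in high glucose (adjusted p = 0.0035). The difference with chrysin was -0.14 (adjusted p = 0.018), a call lost without high glucose library 2 or chrysin library 2 (adjusted p up to 0.063). Against low glucose, PFKFB3 with chrysin was not called (0.08, adjusted p = 0.13). PFKFB2, the heart form, was at 6.56 ± 0.8, 5.33 ± 0.33 and 5.14 ± 0.94 FPKM and was called only for chrysin against low glucose (-0.33, adjusted p = 0.043), a call lost in 10 of 18 alternative settings. PFKFB4 made up 20.9% ± 1.64 of PFKFB transcript in the low glucose group, 34.7% ± 1.72 in the high glucose group and 22.96% ± 1.28 with chrysin, while PFKFB3 made up 65.3% ± 2.23, 56.95% ± 1.39 and 66.6% ± 1.93.

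TIGAR, a p53-induced phosphatase that slows glycolysis, was listed at 1.04, 1.07 and 1.37 FPKM in the low glucose libraries, 1.38, 1.37 and 1.46 in those of high glucose and 2.51, 2.39 and 2.85 with chrysin. The chrysin libraries stood above the rest. The difference was 0.69 (SE 0.13, adjusted p = 0.0012) for chrysin against high glucose and 0.20 (SE 0.13, adjusted p = 0.3) for high against low glucose. Of the TIGAR exon bases, 42.6% are shared with AC008012.1 on the same strand, which is listed at 0, and the gene rested on 61 to 198 reads.

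Upper glycolysis, from glucose phosphate to triose phosphate, had 3 of 7 genes higher in high glucose and none lower (all genes tested: 14.6% and 8.91%). With chrysin, 6 of the 7 fell against high glucose and PFKM alone rose (all genes tested: 20.9% and 24.9%). ALDOC (chr17:28573115-28577264, minus strand), the aldolase best known from brain, was at 24.6, 25.5 and 26.5 FPKM in the low glucose libraries, 35.8, 34.1 and 32.6 in those of high glucose and 15.9, 14.4 and 15.2 with chrysin. No groups overlapped, high glucose being the highest and chrysin the lowest. Its differences were 0.41 (SE 0.052, adjusted p = 0.00034) for high against low glucose and -1.15 (SE 0.052, adjusted p = 9.2e-08) for chrysin against high glucose, 2.25-fold lower. Chrysin was also below low glucose, by -0.74 (SE 0.052, adjusted p = 1.1e-06).

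ALDOA, the muscle aldolase, was listed at 6.18, 5.93 and 4.95 FPKM in the low glucose libraries, 6.72, 5.39 and 6.53 in those of high glucose and 3.57, 5.001 and 4.65 with chrysin. Against high glucose the chrysin libraries lay below without overlap, by -0.46 (SE 0.13, adjusted p = 0.015), and the call was lost without high glucose library 1 or chrysin library 1 (adjusted p up to 0.054). Its level is uncertain, since 42.3% of its exon bases are shared with AC093512.2 on the same strand, itself at 1.45 to 2.9 FPKM. TPI1, which interconverts the triose phosphates, was at 934, 929.99 and 923 FPKM in the low glucose libraries, 1076, 999 and 1010.4 in those of high glucose and 771, 766 and 782 with chrysin. It rose by 0.15 in high glucose (adjusted p = 0.0038) and differed by -0.41 with chrysin (adjusted p = 1.3e-06), with no overlap between groups.

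The phosphofructokinases split by isoform. PFKM, the muscle form, was at 69.3 ± 2.05, 66.8 ± 2.88 and 77.1 ± 1.80 FPKM and rose by 0.21 with chrysin against high glucose (adjusted p = 0.0014). PFKL, the liver form, differed by -0.19 in the same comparison (adjusted p = 0.00018), and the platelet form PFKP by -0.14 (adjusted p = 0.00043). PFKP remained the main form, at 64.8% ± 0.47, 66.1% ± 0.39 and 63.8% ± 0.46 of phosphofructokinase FPKM, and the PFKM share went from 15.4% ± 0.5 in high glucose to 18.9% ± 0.36 with chrysin. None of these 3 genes was called for high against low glucose, though PFKL was called lower after correction for GC content and length (adjusted p = 0.019). GPI, which turns glucose phosphate into fructose phosphate, fell with chrysin (-0.23, adjusted p = 7.7e-05). Its difference of 0.09 for high against low glucose was just past the threshold (adjusted p = 0.049), and the call was lost in 13 of 18 alternative settings.

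Of the 7 genes of lower glycolysis, from glyceraldehyde phosphate to pyruvate, 5 rose in high glucose and none fell (all genes tested: 14.6% and 8.91%). With chrysin against high glucose 6 fell (all genes tested: 20.9%). PGAM1, the mutase of this stretch, was at 399.999, 394 and 389 FPKM in the low glucose libraries, 482, 462 and 471 in those of high glucose and 375, 367 and 381 with chrysin. It rose by 0.26 (SE 0.025, adjusted p = 6.5e-05) and fell with chrysin, -0.33 (SE 0.025, adjusted p = 2.5e-06). PGK1, the first ATP-yielding step, was at 493, 484 and 481 FPKM in the low glucose libraries, 563, 551 and 563 in those of high glucose and 437, 446 and 445 with chrysin. The difference was 0.20 (SE 0.022, adjusted p = 0.00012) with glucose and -0.34 (SE 0.022, adjusted p = 8.7e-07) with chrysin. In both genes high glucose stood above the other groups without overlap.

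ENO1, the widespread enolase, was at 1994, 1984 and 1920.1 FPKM in the low glucose libraries, 2283, 2152 and 2183 in those of high glucose and 1769, 1769 and 1746 with chrysin. Again no groups overlapped, with chrysin lowest. It rose by 0.17 in high glucose (adjusted p = 0.0012) and differed by -0.32 with chrysin (adjusted p = 3.8e-06). ENO2, the enolase of neurons, was at 79.7, 77.3 and 77.6 FPKM in the low glucose libraries, 98.6, 97.01 and 96.4 in those of high glucose and 77.1, 77.6 and 80.7 with chrysin. High glucose was again highest, 0.31 above low glucose (adjusted p = 5.4e-05), and the chrysin difference was -0.31 (adjusted p = 1.3e-05). Chrysin and low glucose overlapped for ENO2, with a difference of 0.00 (SE 0.03, adjusted p = 0.91) that turned to -0.053 with median-of-ratios scaling and to -0.078 after correction for GC content and length (adjusted p = 0.029). ENO3, the muscle enolase, ran from 16.5 to 21.4 FPKM and was called in no comparison.

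GAPDH, often used as a reference gene, was at 3066, 3080.4 and 2994 FPKM in the low glucose libraries, 3364, 3069.99 and 3073 in those of high glucose and 2694, 2660.3 and 2699 with chrysin. High and low glucose were not called apart (0.06, adjusted p = 0.27), a difference that turned to -0.0086 after correction for GC content and length. All 3 chrysin libraries were below all others, by -0.24 (SE 0.033, adjusted p = 0.00017) against high glucose and -0.18 (SE 0.033, adjusted p = 0.00086) against low glucose. PKM, which makes pyruvate, was at 1802, 1785 and 1775 FPKM in the low glucose libraries, 2046, 1925 and 1975 in those of high glucose and 1731, 1726 and 1744 with chrysin. Its groups had the same order as those of ENO1, without overlap. It rose by 0.15 in high glucose (adjusted p = 0.0014) and differed by -0.19 with chrysin (adjusted p = 7.8e-05). Unlike ENO1, PKM was not called for chrysin against low glucose (-0.04, adjusted p = 0.15), though it was in 4 of 18 alternative settings. Splice forms of PKM cannot be told apart in gene totals.

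**Figure D3:**
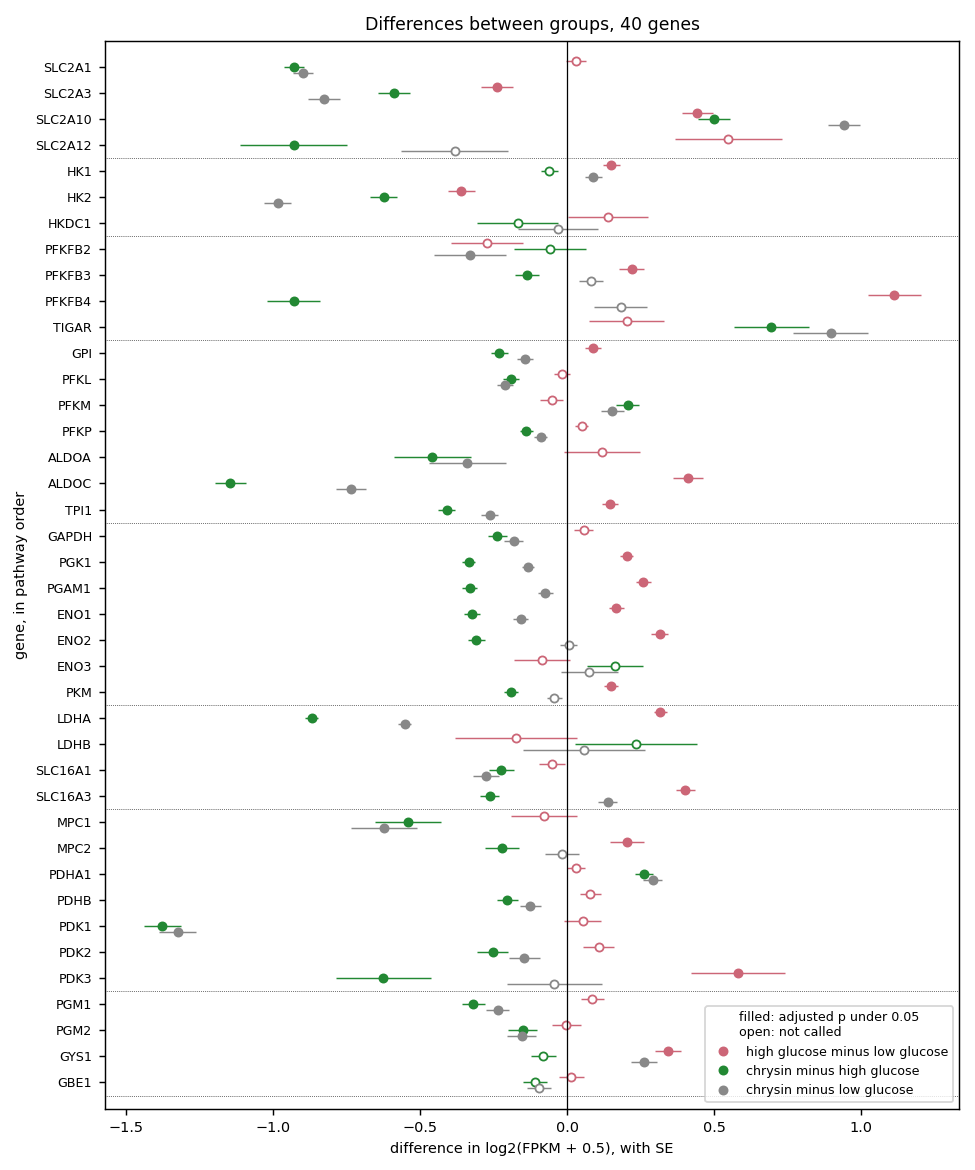
Difference in log2(FPKM + 0.5) with its standard error (horizontal axis) for each of the 40 genes (vertical axis, in pathway order), with a separate mark for each of the 3 comparisons. PDK1 and ALDOC reach furthest to the left for chrysin against high glucose, and PFKFB4 furthest to the right for high against low glucose.

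Of the 4 lactate genes, LDHA and SLC16A3 rose in high glucose (all genes tested: 14.6% higher). Those 2 and SLC16A1 fell with chrysin against high glucose (all genes tested: 20.9% lower). LDHA (chr11:18394388-18408425, plus strand), the lactate dehydrogenase subunit that favours pyruvate reduction, was at 822, 849.7 and 846 FPKM in the low glucose libraries, 1062, 1036 and 1036 in those of high glucose and 576, 573 and 567 with chrysin. The groups were far apart relative to their spread. It rose by 0.32 (SE 0.022, adjusted p = 6.8e-06) in high glucose. With chrysin it was 1.83-fold lower than in high glucose, -0.87 (SE 0.022, adjusted p = 2.5e-09), and also below low glucose, -0.55 (SE 0.022, adjusted p = 2e-08).

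LDHB, the subunit typical of heart, was listed at 4.29, 4.93 and 3.15 FPKM in the low glucose libraries, 4.28, 4.37 and 2.33 in those of high glucose and 4.35, 4.60 and 3.82 with chrysin on 37 to 82 reads. It overlapped in every comparison and was called in none, with -0.18 (adjusted p = 0.6) for high against low glucose and 0.23 (adjusted p = 0.39) for chrysin against high glucose. Its level is uncertain, because 33.4% of its exon bases are shared with AC010197.2, listed at 0, and its pseudogenes held up to 9.40% of its FPKM. LDHA held 99.5% ± 0.11, 99.7% ± 0.11 and 99.3% ± 0.065 of the FPKM of both subunits.

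SLC16A3 (chr17:82228397-82261129, plus strand) encodes MCT4, the lactate exporter of glycolytic cells, and was at 256, 264 and 254 FPKM in the low glucose libraries, 358, 336 and 329 in those of high glucose and 279, 287 and 286 with chrysin. High glucose was highest and low glucose lowest, with no overlap. It rose by 0.40 (SE 0.033, adjusted p = 2.1e-05), and chrysin stood -0.26 (SE 0.033, adjusted p = 7.3e-05) from high glucose. SLC16A3 in chrysin was still 0.14 above low glucose (adjusted p = 0.0047), a call that median-of-ratios scaling did not keep (adjusted p = 0.068). SLC16A1, which encodes MCT1 and carries lactate both ways, was at 66.8 ± 2.87, 64.5 ± 3.31 and 55.1 ± 0.52 FPKM and fell with chrysin (-0.22, adjusted p = 0.0016). The SLC16A3 share of the pair was 79.4% ± 0.7, 84.1% ± 1.25 and 83.7% ± 0.33.

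**Figure D4:**
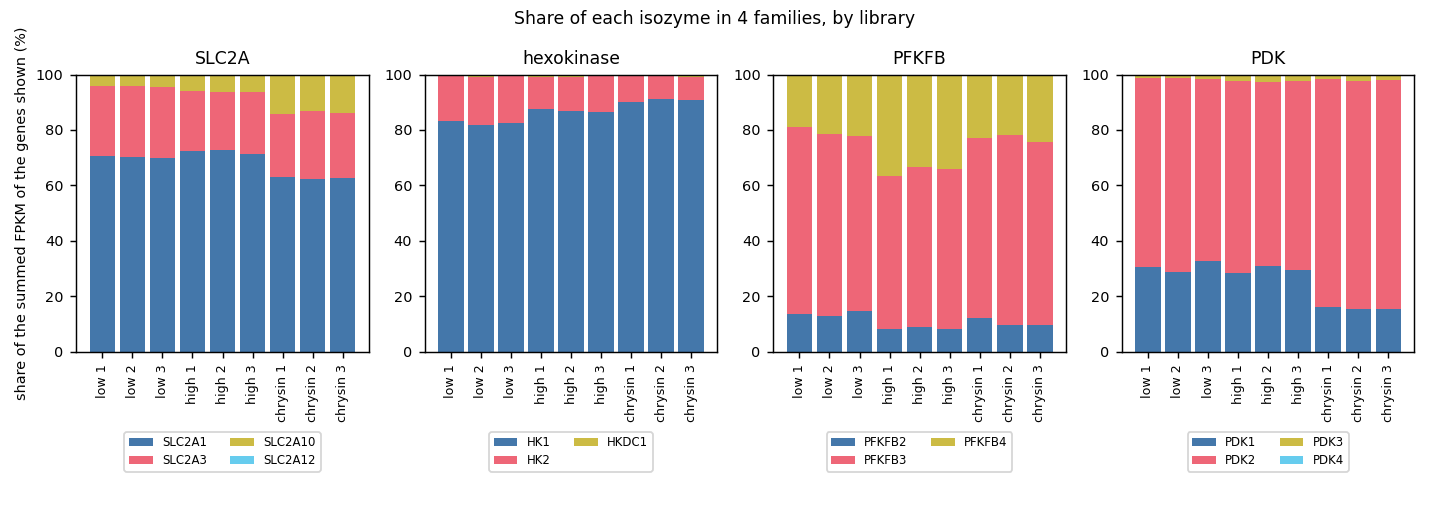
Share of the summed FPKM of each of 4 isozyme families (vertical axis, 0 to 100%) held by each member in each of the 9 libraries (horizontal axis). The SLC2A10 share rises from 4.08% in low glucose to 13.5% with chrysin, the HK2 share is 8.64% with chrysin, and the PDK2 share is 82.5% with chrysin.

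At the entry of pyruvate into mitochondria, 6 of 7 genes tested fell with chrysin against high glucose and PDHA1 rose. Among all genes tested, 20.9% fell and 24.9% rose. PDK1 (chr2:172555373-172608669, plus strand), a kinase that switches pyruvate dehydrogenase off and a classic hypoxia target, was at 14.5, 13.5 and 14.7 FPKM in the low glucose libraries, 14.01, 15.4 and 14.8 in those of high glucose and 5.46, 5.57 and 5.07 with chrysin. Low and high glucose overlapped, and every chrysin library was well below them. Chrysin was 2.75-fold lower than high glucose, -1.38 (SE 0.063, adjusted p = 9.2e-08), the largest fall among the 40 genes on the log2(FPKM + 0.5) scale. As a plain ratio of means, SLC2A12 fell further, 4.41-fold on few reads, but it passed the filter only through its high glucose mean. The difference was -1.33 (SE 0.063, adjusted p = 7.3e-08) against low glucose, while high and low glucose differed by 0.05 (SE 0.063, adjusted p = 0.6).

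PDK2, the most widespread of these kinases, was at 31.3 ± 1.95, 33.8 ± 0.78 and 28.2 ± 1.35 FPKM and differed by -0.25 with chrysin (adjusted p = 0.0025). Its exons overlap SAMD14 on the other strand over 38.6% of their bases. PDK3, a low gene on 45 to 151 reads, was at 0.665, 0.539 and 0.75 FPKM in the low glucose libraries, 1.10, 1.34 and 1.22 in those of high glucose and 0.501, 0.755 and 0.599 with chrysin. High glucose was above both other groups, by 0.58 (SE 0.16, adjusted p = 0.024) over low glucose, and chrysin differed from it by -0.63 (SE 0.16, adjusted p = 0.0085). The rise of PDK3 in high glucose lost its call without library 1 or 2 of low glucose, and likewise without library 2 or 3 of high glucose or without a filter (adjusted p up to 0.079). PDK1 held 30.8% ± 2.03, 29.7% ± 1.33 and 15.7% ± 0.31 of PDK transcript, and PDK2 67.8% ± 2.29, 67.9% ± 1.57 and 82.5% ± 0.15.

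PDHA1, the catalytic alpha subunit that the PDK kinases phosphorylate, was at 65.9 ± 1.66, 67.2 ± 0.72 and 80.7 ± 1.55 FPKM. It rose by 0.26 (SE 0.031, adjusted p = 5.5e-05) with chrysin against high glucose, and its overlap with MAP3K15 on the other strand covers 21.3% of its exon bases. PDHB, the beta subunit of the same enzyme, went the other way, at 50.02 ± 0.77, 52.8 ± 1.98 and 45.8 ± 0.67 FPKM with a chrysin difference of -0.20 (adjusted p = 0.00085). MPC1, a subunit of the mitochondrial pyruvate carrier, was at 11.1, 11.8 and 12.2 FPKM in the low glucose libraries, 9.84, 10.997 and 12.4 in those of high glucose and 6.48, 7.02 and 8.93 with chrysin. Its chrysin libraries were below all others, by -0.54 (SE 0.11, adjusted p = 0.0024) against high glucose. MPC2, its partner, was at 27.8 ± 1.45, 32.1 ± 1.60 and 27.5 ± 1.69 FPKM, rose with glucose (0.20, adjusted p = 0.027) and was lower with chrysin (-0.22, adjusted p = 0.0094). The MPC2 rise was lost in 6 of 18 alternative settings, among them median-of-ratios scaling, no filter, and leaving out high glucose library 1 or low glucose library 2 or 3 (adjusted p up to 0.102).

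Of the 4 glycogen genes, GYS1 rose in high glucose and the rest were not called there (all genes tested: 14.6% higher and 8.91% lower). GYS1, the glycogen synthase of muscle, was at 57.2, 54.6 and 56.9 FPKM in the low glucose libraries, 75.4, 71.9 and 67.1 in those of high glucose and 66.1, 66.97 and 69.2 with chrysin. Low glucose was below both other groups, which overlapped. It rose by 0.34 (SE 0.044, adjusted p = 0.00034) in high glucose, and chrysin against high glucose gave -0.08 (SE 0.044, adjusted p = 0.15), called only without high glucose library 3 (adjusted p = 0.027). Against low glucose it remained higher with chrysin, 0.26 (SE 0.044, adjusted p = 0.0005). PGM1, which links glycogen to glycolysis, was at 47.97, 46.1 and 45.3 FPKM in the low glucose libraries, 49.1, 48.9 and 49.7 in those of high glucose and 38.9, 37.98 and 41.2 with chrysin. The chrysin libraries were lowest, by -0.32 (SE 0.039, adjusted p = 7e-05) against high glucose. PGM2, a related mutase, differed by -0.15 with chrysin (adjusted p = 0.028), a call lost without a filter and without high glucose library 2 or chrysin library 2 or 3 (adjusted p up to 0.105). GBE1, the glycogen branching enzyme, was at 50.5 ± 0.76, 50.96 ± 2.15 and 47.2 ± 2.002 FPKM and was called in no comparison. Its chrysin difference of -0.11 (adjusted p = 0.052) was called in 6 of 18 alternative settings, among them without high glucose library 1 or chrysin library 1 (adjusted p = 0.032 and 0.023).

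A wider list of 75 genes of the same pathways, which includes gluconeogenesis, glycogen breakdown and further transporters, had 47 genes tested. Of these, 3 rose and 6 fell in high against low glucose (median -0.01), 14 rose and 11 fell for chrysin against high glucose (median 0.07), and 15 rose and 12 fell for chrysin against low glucose (median 0.08). The shares of the tested genes were 6.38% higher and 12.8% lower, then 29.8% and 23.4%, then 31.9% and 25.5%. Those of the chrysin comparisons lay near the shares over all genes given above. For high against low glucose the split was 2 and 8 with median-of-ratios scaling, 2 and 10 after correction for GC content and length, and 6 and 7 with limma voom. PCK2, the mitochondrial form of the enzyme that makes phosphoenolpyruvate, was at 53.2, 51.4 and 50.9 FPKM in the low glucose libraries, 26.98, 27.4 and 26.2 in those of high glucose and 23.1, 22.8 and 22.2 with chrysin. It fell by 0.94 in high against low glucose (adjusted p = 9.9e-08) and differed by -1.17 for chrysin against low glucose (adjusted p = 3.4e-09).

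MINPP1, an inositol phosphate phosphatase that also acts on bisphosphoglycerate, rose at each step, from 19.2 ± 0.17 to 27.1 ± 0.4 and 34.3 ± 0.57 FPKM, with differences of 0.49 (adjusted p = 1.1e-05) and 0.33 (adjusted p = 3.2e-05). GYG1, the primer of glycogen, and PYGL, a glycogen phosphorylase, differed by -0.27 (adjusted p = 0.00041) and -0.14 (adjusted p = 0.0059) in high against low glucose. With chrysin against high glucose, GAA, the lysosomal glucosidase that digests glycogen, rose by 0.51 (adjusted p = 9.8e-07). PDP1, the phosphatase that reverses the PDK kinases, was at 52.6 ± 2.86 FPKM in high glucose and 37.7 ± 0.77 with chrysin, a difference of -0.47 (adjusted p = 7.7e-06). SLC16A4, a monocarboxylate transporter, fell from 6.22 ± 0.4 to 2.94 ± 0.56 FPKM, -0.98 (adjusted p = 4.3e-05).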

How the data were processed

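The authors deposited 1 table of FPKM for 9 libraries of AC16 cells, 3 per treatment label. No header gives the unit, which was inferred from the values. Per the submitters' processing notes, the tools were HISAT2 2.2.1, HTSeq 0.13.5, fastp 0.23.4 and StringTie 2.2.1 on hg38, without roles. Annotation release and strand setting are not stated. Whole reads were recovered from the FPKM steps for 28230 of 28230 genes above 0 in 2 or more libraries (100.0%), with a largest deviation of 4.67e-05 reads at a tolerance of 0.05. They are the smallest whole numbers for each gene, so a divisor common to all its libraries would be missed. The 4119 genes above 0 in 1 library were set to 1 read there.

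A single model in limma 3.58.1 (R 4.3.3, trended variance) took log2(FPKM + 0.5) of all 9 libraries, with group means and no block, for the 16996 genes whose mean reached 0.5 FPKM in any group. Tests were two-sided, with Benjamini-Hochberg adjustment over all genes tested. With 3 against 3 libraries the smallest exact permutation p is 0.1. The fit was also run on simulated reads in which no library departed from its group, unlike high glucose library 1, so that run does not cover this departure. The 41 genes and all lists were chosen with earlier results of these data known. Values in every library are given for members called in at least 1 comparison with an absolute difference of at least 0.3 and groups that did not overlap, and for SLC2A1, HK2, PFKFB3, PFKFB4, GAPDH, PKM, LDHA, LDHB, SLC16A3, PDK1, PDK4 and TIGAR. Up to 4 genes of the wider list are named per comparison, by smallest p. Positions and exon overlaps came from GENCODE 29. The settings varied were the pseudocount (0.1 or 1), the filter (none, or 5 FPKM), the scaling (median of ratios), the tool (limma voom, on recovered reads), a replicate block, separate fits per comparison and the omission of each library. A lowess correction for GC content and length (span 0.4) was added after the data were seen.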

Additional observations from a re-analysis of the deposited data

How the results depend on the processing

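Of the genes called, 16 of 19 kept their call under every setting for high against low glucose, 30 of 33 for chrysin against high glucose and 21 of 29 for chrysin against low glucose, and no called difference changed sign. With median-of-ratios scaling, 4 of the 40 genes were higher for chrysin against low glucose, beside 4212 of all 16987 genes tested. In the wider list, 6 were higher for high against low glucose with limma voom on recovered reads, and 10 lower after correction for GC content and length. Leaving out each library gave 14 to 16 higher and 2 lower genes for high against low glucose, 4 to 5 and 27 to 30 for chrysin against high glucose, and 6 to 8 and 17 to 21 for chrysin against low glucose. Shares over all genes are not given for the left-out libraries or for limma voom. These counts therefore do not show whether the listed genes moved differently from all genes tested.

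Differences that were not called changed sign in some settings. After correction for GC content and length, high against low glucose gave -0.032 for SLC2A1, -0.024 for PFKP, -0.0086 for GAPDH and -0.00355 for GBE1, and chrysin against low glucose gave -0.078 for ENO2. With median-of-ratios scaling the values were -5.4e-06 for PDHA1 and -0.015 for GBE1 in high against low glucose, and -0.053 for ENO2 in chrysin against low glucose. Leaving out 1 library gave, for high against low glucose, -0.34 to 0.081 for LDHB, -0.048 to 0.032 for PGM2 and -0.020 to 0.037 for GBE1. For chrysin against high glucose it gave -0.19 to 0.022 for PFKFB2 and -0.024 to 0.37 for LDHB. For chrysin against low glucose it gave -0.082 to 0.011 for HKDC1, -0.015 to 0.019 for ENO2, -0.10 to 0.18 for LDHB, -0.0637 to 0.022 for MPC2 and -0.13 to 0.032 for PDK3. The cause was not tested.

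Over all genes tested, same-numbered libraries of different groups did not deviate together (r from -0.0153 to 0.00802 over 9 pairs). This cannot tell whether they shared a culture or day, since an effect on few genes would leave r this small. With the replicate block, 15 genes were higher and 2 lower for high against low glucose, 4 and 29 for chrysin against high glucose, and 7 and 20 for chrysin against low glucose. The shares over all genes under the block are not given here. The calls lost under the block were GPI and MPC2 in the first comparison and PFKFB2 and ALDOA in the last. SLC2A12, PDK3 and HKDC1 rested on few reads, and ALDOA, LDHB and TIGAR share exons with other gene models, which limits how firmly their differences can be read.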
